A study of Mus musculus with 22 samples.

Results

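Granulocyte-primed cells were picked out of a single-cell RNA-seq table of mouse fetal liver LSK cells by their raw counts of primary granule genes. LSK cells are the sorted fraction that lacks lineage markers and carries Sca-1 and c-Kit, and it holds the stem cells and the earliest progenitors of blood. A cell was taken as granulocyte-primed, and is called a gated cell here, where its counts of Elane, Prtn3, Ctsg and Ms4a3 summed to 3 or more and its counts of the late granule genes S100a8, S100a9, Camp, Ngp and Ltf summed to under 10. The single-cell table has no row for Ltf, which was not analysed here, so 4 late genes were summed. The rule found 1646 of 15707 deposited cells. After cells under 500 counts or with 20% or more of their counts from mitochondria were dropped, 15678 cells were left, of which 1644 were gated cells and 14034 were other cells.

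All samples came from fetal livers at E14.5. The deficient embryos (KO) carried Vav-Cre and Mettl3 fl/fl, and the control embryos (WT) carried Mettl3 fl/fl without Vav-Cre, so both had the floxed allele. The Vav promoter drives Cre in blood cells, and METTL3 protein catalyses the m6A methylation of messenger RNA. The single-cell libraries, 2 KO and 2 WT, were made from sorted LSK cells on microwell devices with beads that capture mRNA. Bulk RNA-seq of LSK cells (3 KO and 3 WT libraries) and CUT&RUN for the histone mark H3K4me3 (2 KO and 2 WT libraries) gave readouts that the rule did not use. The labels call the libraries biological replicates.

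Granulocytes arise from stem cells through multipotent and granulocyte-monocyte progenitors. Primary, or azurophil, granules are the first granules to form, at the promyelocyte stage, and they are packed with serine proteases and myeloperoxidase. The genes of these proteins come on early, under PU.1, C/EBP factors and MYB, so that a progenitor that still carries stem and progenitor surface markers can already transcribe them, while secondary granule genes and the calprotectin genes S100a8 and S100a9 come on later.

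The gate rests on 4 genes. Elane encodes neutrophil elastase, Prtn3 proteinase 3, Ctsg cathepsin G and Ms4a3 a membrane protein of granulocyte-monocyte progenitors that is linked to cell-cycle control. Elane and Prtn3 are neighbours on mouse chromosome 10. Their promoters are shown because all 4 genes define the gate, and because bulk RNA and H3K4me3 at their starts are described below. The 250 bases before each annotated start follow, from RefSeq on GRCm38.p6, read 5′ to 3′ on the strand of the gene, with motif matches in capitals. Elane lies at chr10:79886062-79886311 on the plus strand, Prtn3 at chr10:79879417-79879666 on the plus strand, Ctsg at chr14:56102575-56102824 on the minus strand and Ms4a3 at chr19:11640852-11641101 on the minus strand.
Elane: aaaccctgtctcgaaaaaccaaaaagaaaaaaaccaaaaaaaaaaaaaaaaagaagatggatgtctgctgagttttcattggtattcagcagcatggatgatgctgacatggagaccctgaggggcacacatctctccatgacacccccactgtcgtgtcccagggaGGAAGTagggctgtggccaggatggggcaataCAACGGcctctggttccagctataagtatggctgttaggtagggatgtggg
Prtn3: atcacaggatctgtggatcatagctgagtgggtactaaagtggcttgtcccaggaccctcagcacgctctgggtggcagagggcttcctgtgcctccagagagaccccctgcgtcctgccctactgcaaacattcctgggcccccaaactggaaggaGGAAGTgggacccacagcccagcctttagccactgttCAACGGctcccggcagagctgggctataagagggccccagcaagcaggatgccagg
Ctsg: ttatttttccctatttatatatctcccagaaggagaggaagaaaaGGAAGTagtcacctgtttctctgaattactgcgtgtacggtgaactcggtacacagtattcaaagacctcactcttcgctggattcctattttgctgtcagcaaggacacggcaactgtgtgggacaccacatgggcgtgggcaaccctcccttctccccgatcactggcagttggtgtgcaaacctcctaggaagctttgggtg
Ms4a3: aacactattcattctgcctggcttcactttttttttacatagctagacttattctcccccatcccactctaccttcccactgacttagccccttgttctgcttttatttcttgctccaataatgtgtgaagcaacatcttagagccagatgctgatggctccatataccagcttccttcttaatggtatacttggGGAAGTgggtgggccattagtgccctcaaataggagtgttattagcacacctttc

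Both strands of these windows were searched for GGAAGT, a core of the ETS family to which PU.1 belongs, for TTGCNNAA, a C/EBP half-site pair, and for CAACGG, a MYB core. GGAAGT was found in all 4 windows, at bases 83 to 78 before the start of Elane, 93 to 88 before Prtn3, 205 to 200 before Ctsg and 55 to 50 before Ms4a3. CAACGG was found in the windows of both chromosome 10 neighbours, at bases 51 to 46 before the start of Elane and 56 to 51 before Prtn3. Across 32851 RefSeq promoter windows of the same length, 19.7% held GGAAGT, 4.05% held CAACGG and 9.56% held TTGCNNAA. TTGCNNAA had no match in the 4 windows, which says only that these letters are not there.

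Within the gate, Prtn3 was the gene counted most often. It had a count in 96.7% and 98.2% of gated cells in KO libraries 1 and 2, and in 97.2% and 93.8% in WT libraries 1 and 2. Ctsg had a count in 62.5% and 50.9% of KO gated cells and in 57.1% and 66.7% of WT gated cells. Ms4a3 had one in 33.5% and 17.7% of KO gated cells and in 12.4% and 15.3% of WT gated cells, so its share in KO library 1 stood above the rest. Elane had a count in only 4.45% and 2.08% of KO gated cells and in 8.29% and 5.56% of WT gated cells. The gate therefore rested mainly on Prtn3 and Ctsg. These shares follow from the rule and carry no test.

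In summed counts of gated cells, Prtn3 reached 1100 and 609 counts in every 1000000 counts (CPM) in KO and 869 and 668 CPM in WT, and Ctsg 502 and 204 CPM in KO and 392 and 506 CPM in WT. Ms4a3 reached 193 and 47.1 CPM in KO and 70.7 and 81.0 CPM in WT, and Elane 17.2 and 3.69 CPM in KO and 34.8 and 16.6 CPM in WT. For each of the 4 genes the KO and WT libraries overlapped. Of all 1644 gated cells, 33.8% had counts of 1 of the 4 genes, 48.1% of 2, 16.4% of 3 and 1.76% of all 4.

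The late genes were kept low by the rule. S100a8, a subunit of the calcium-binding protein calprotectin, stood at 188 and 5.33 CPM in KO gated cells and at 107 and 46.0 CPM in WT gated cells. Camp, the cathelicidin of secondary granules, stood at 2.73 and 0 CPM in KO and at 7.61 and 0 CPM in WT. A further 129 cells reached the gate sum but had 10 or more late counts and stayed outside, 96 and 5 in the KO libraries and 22 and 6 in the WT libraries.

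The label was checked against granulocyte progenitor genes that the rule did not use. Mpo, the myeloperoxidase of primary granules, had a count in 84.6% and 91.4% of KO gated cells and in 85.7% and 91.0% of WT gated cells, against 51.6% and 52.0% of other KO cells and 36.6% and 40.4% of other WT cells. Cebpe, the factor that starts the secondary granule programme, had counts in gated cells of KO library 1 alone, at 2.34 CPM, and none in the other 3 libraries. Markers of monocytes were also higher in gated cells, as described below, so the gate was not specific to granulocyte genes.

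Cells on either side of the threshold had Mpo levels of a similar size. Gated cells with a sum of exactly 3 numbered 354 and 135 in KO and 72 and 64 in WT, and the median sum was 4 in every library. Mpo stood at 836 and 792 CPM in KO and 662 and 953 CPM in WT cells with a sum of 3, just inside, and at 787 and 714 CPM in KO and 519 and 771 CPM in WT cells with a sum of 2, just outside.

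Depth differed between libraries. Gated cells had a median of 2231.5 and 4922 counts in the KO libraries and of 3567 and 3084.5 in the WT libraries, and other cells 1379.5 and 1955 in KO and 2018.5 and 1540 in WT. Summed over gated cells the totals were 2559644 and 2440440 in KO and 919387 and 543460 in WT. KO library 1 stood apart in its other cells, where the 4 gate genes took 0.475 of 1000 counts, against 0.172 in KO library 2, 0.175 in WT library 1 and 0.142 in WT library 2. Libraries shared 8 cell barcodes, carried by 2 gated cells. Xist was counted in both KO libraries and the Y-linked genes Eif2s3y, Ddx3y and Uty in both WT libraries only, so genotype and sex cannot be told apart in the single-cell comparisons. Mettl3 stood at 52.7 and 54.1 CPM in KO gated cells and at 40.2 and 35 CPM in WT gated cells, whereas in bulk LSK cells it stood at 4.13, 6.31 and 5.52 CPM in KO and 43.0, 43.0 and 33.2 CPM in WT (edgeR log2 fold change -2.91, SE 0.17, adjusted p = 1.6e-05). The labels do not give the deleted part of Mettl3, and the single-cell counts do not check the genotype labels.

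Gated cells made up a larger share of the KO libraries in raw counts. They were 898 of 4920 kept cells in KO library 1, or 18.3% (95% Clopper-Pearson interval 17.2 to 19.4%), and 385 of 3884 in KO library 2, or 9.91% (8.99 to 10.9%). They were 217 of 2731 in WT library 1, or 7.95% (6.96 to 9.02%), and 144 of 4143 in WT library 2, or 3.48% (2.94 to 4.08%). Both KO shares lay above both WT shares, although the intervals of KO library 2 and WT library 1, which cover counting error only, overlapped. The mean was 14.1 ± 5.90% in KO and 5.71 ± 3.16% in WT (SD, n = 2 each), a ratio of 2.47. The exact two-sided permutation test gave p = 0.333, the smallest that 2 against 2 libraries allow. Without KO library 1 the ratio was 1.74, and without KO library 2, WT library 1 and WT library 2 it was 3.20, 4.05 and 1.77. Shares are of cells sorted on Sca-1, whose gene is Ly6a. In cells with a gate sum of 0, Ly6a stood at 53.4 and 74.4 CPM in KO and at 9.66 and 21.7 CPM in WT. It was also called higher in bulk KO LSK cells. Whether the sort took in like cells from KO and WT was not tested.

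The gate takes a fixed number of counts, so deeper cells pass it more readily. When each cell was thinned to 1000 counts, which left out 847 and 685 shallower KO cells and 268 and 752 WT cells, 7.88% and 1.44% of KO cells and 1.83% and 0.973% of WT cells reached a sum of 3. KO library 2 then lay below WT library 1, and the exact permutation p was 0.667. Asking for 2 or more gate counts in every 1000 counts, an alternative chosen after seeing the data, gave 9.11% and 1.34% in KO and 1.98% and 1.04% in WT, with the same exact p of 0.667. With a threshold of 5 counts the shares were 7.44% and 4.51% in KO and 3.33% and 1.28% in WT, and the KO libraries again lay above the WT libraries. The higher share of KO library 1 held under each of these gates, whereas the order of KO library 2 and WT library 1 depended on the correction for depth.

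**Figure D1:**
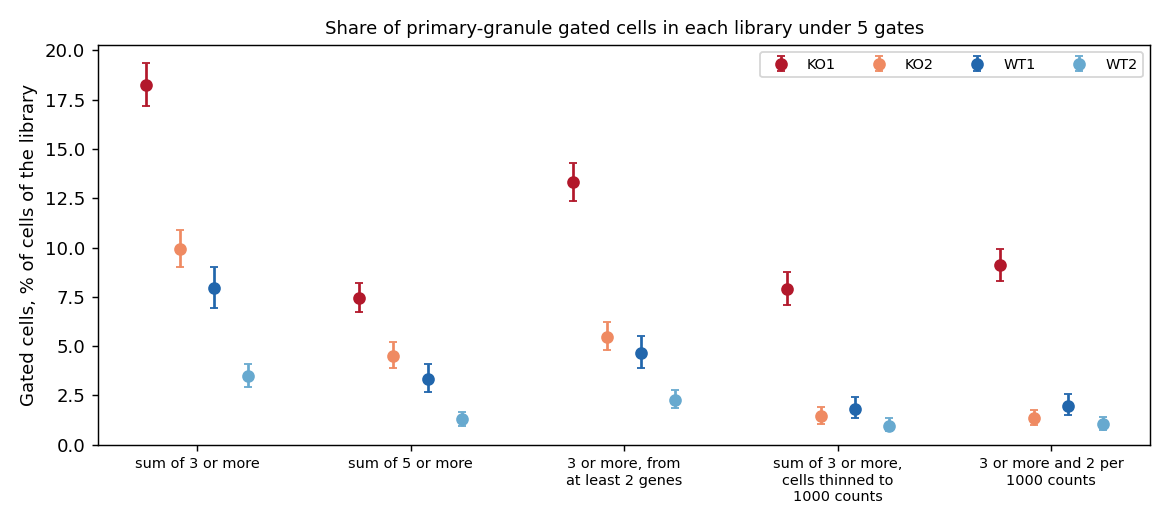
Share of kept cells that reached the gate, in percent of cells per library, under the raw count rule and under other forms of the gate; KO libraries stand left of WT libraries and bars are 95% Clopper-Pearson intervals. KO library 1 was highest under every gate shown, while KO library 2 (1.44%) fell below WT library 1 (1.83%) once cells were thinned to 1000 counts.

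Some gate counts were found in cells marked for other lineages. Among cells with 3 or more counts of erythroid marker genes, which should lack granule proteases, 17 of 205 (8.29%) and 0 of 41 in the KO libraries and 1 of 179 (0.559%) and 1 of 55 (1.82%) in the WT libraries reached the gate sum. The count of 0 allows a share of up to 7.32%. Prtn3 had a count in 22.9% and 24.4% of these erythroid-marked KO cells and in 10.6% and 9.09% of the WT ones, at median depths of 3452 and 4485 counts in KO and 4909 and 2895 in WT. In gated cells the share with Prtn3 lay between 93.8% and 98.2% at median depths from 2231.5 to 4922. Prtn3 is a gate gene, so that share follows from the rule and is no measure of signal above free RNA. Among lymphoid-marked cells, 13 of 42 (31.0%) and 21 of 87 (24.1%) in KO and 8 of 146 (5.48%) and 7 of 120 (5.83%) in WT reached the sum. The 4 gate genes took 0.175 and 0.0633 of 1000 counts in erythroid-marked KO cells and 0.0406 and 0.0406 in WT ones, and how much free RNA or joined cells added to the gated share was not tested.

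Gated cells were set against the other cells of their own library as a description, since the gate itself is this contrast. Of 9273 genes with enough counts to compare, 1018 (11.0%) were higher in gated cells in 4 of 4 libraries and 1401 (15.1%) were lower in 4 of 4, and the median log2 ratio was -0.04. Against this, 14 of 22 comparable granulocyte progenitor genes were higher in 4 of 4 libraries and 0 were lower, with a median log2 ratio of 0.72. Ratios are of CPM in gated over other cells, given as mean ± SD over 4 libraries.

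Among granule and granulocyte genes, Mpo stood at 1103 and 1220 CPM in KO gated cells and 1162 and 1549 CPM in WT gated cells, against 584 and 507 CPM in other KO cells and 315 and 434 CPM in other WT cells (log2 ratio 1.48 ± 0.47). Gated cells were above other cells in every library, and the gap was smallest in KO library 1, as it was for 15 of the 20 genes with the highest ratios. Hp, the haemoglobin scavenger haptoglobin, had a log2 ratio of 2.04 ± 0.76, and Cst7, an inhibitor of granule cathepsins, one of 1.11 ± 0.49. Ctsc, the cathepsin that activates the granule proteases, had one of 0.67 ± 0.17, and Plac8, a gene of early myeloid progenitors, one of 0.85 ± 0.06. Not all progenitor genes followed, since Srgn, the proteoglycan core that packs granule proteases, stood at 0.12 ± 0.23 and Csf3r, the receptor for G-CSF, at 0.00 ± 0.55, with both signs among the libraries.

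Several receptor and signalling genes of myeloid cells, inside and outside the 20, are given as values. Clec5a, an activating lectin receptor, had a log2 ratio of 1.93 ± 0.50, and Igsf6, an immunoglobulin-family membrane protein of myeloid cells, one of 1.61 ± 0.46. Clec12a, an inhibitory lectin of myeloid progenitors, had 1.09 ± 0.37, and Ccl9, a myeloid chemokine, had 1.13 ± 0.51. Of the low-affinity IgG receptors that mark granulocyte-monocyte progenitors, Fcgr2b had 1.63 ± 0.74 and Fcgr3 0.95 ± 0.85. Csf2rb, the shared receptor chain for GM-CSF, IL-3 and IL-5, had 0.85 ± 0.21. Cd34 was slightly higher, at 0.19 ± 0.03, and the growth factor receptors Kit, at -0.33 ± 0.15, and Flt3, at -0.37 ± 0.27, were lower in all 4 libraries.

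Transcription factors of the myeloid fate moved with the gate. Of 11 comparable factors, 6 were higher and 3 lower in 4 of 4 libraries. Cebpd stood at 1.04 ± 0.28 on the log2 ratio scale, Cebpb at 0.79 ± 0.12, Irf8, the factor of monocyte and dendritic cell fate, at 0.79 ± 0.18, Gfi1, a repressor that favours granulocytes, at 0.48 ± 0.59, and Spi1, which encodes PU.1, at 0.45 ± 0.09. Gfi1b, its relative of the erythroid and megakaryocyte lines, stood at -1.48 ± 1.10, Id2, an inhibitor of helix-loop-helix factors, at -0.76 ± 0.04, and Erg, an ETS factor of stem cells, at -0.50 ± 0.04. Cebpa, the factor that specifies granulocyte-monocyte progenitors, was too sparse to count among them, at 12.5 and 11.5 CPM in KO gated cells and 12 and 7.36 CPM in WT gated cells, against 7.11 and 5.76 CPM in other KO cells and 3.94 and 3.22 CPM in other WT cells.

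Monocyte genes were higher in gated cells as well, 10 of 16 in 4 of 4 libraries with 1 lower. F13a1, the coagulation factor XIII subunit of monocytes, had the highest log2 ratio of the 20 genes, at 2.35 ± 0.69. Ly6c2, a surface marker of inflammatory monocytes, had 1.84 ± 0.78, Cx3cr1, the fractalkine receptor, 1.29 ± 0.14, Csf1r, the receptor for M-CSF, 0.83 ± 0.30, and Ccr2, the receptor for CCL2, 0.76 ± 0.32. S100a4 was the 1 lower gene, at -1.29 ± 0.76. After thinning, 6.27% and 5.80% of KO gated cells and 13.7% and 18.6% of WT gated cells carried 2 or more monocyte marker counts, against 3.81% and 1.88% of other KO cells and 7.51% and 6.58% of other WT cells. Without thinning, with 3 or more counts asked for, the shares of gated cells were 12.8% and 18.7% in KO and 29.0% and 24.3% in WT.

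Endoplasmic reticulum folding genes, which serve secretory and granule proteins, were higher in gated cells in 14 of 17 cases and lower in 0. Calr, a calcium-binding chaperone of glycoproteins, stood at 1430 and 1385 CPM in KO gated cells and 1001 and 1437 CPM in WT gated cells, against 997 and 992 CPM in other KO cells and 590 and 755 CPM in other WT cells (log2 ratio 0.67 ± 0.21). Hspa5, the chaperone BiP, had a log2 ratio of 0.58 ± 0.09, and Hsp90b1, its HSP90 relative, one of 0.50 ± 0.06. Of 27 MYC and ribosome biogenesis genes 11 were higher and 0 lower, with Myc at 0.47 ± 0.16.

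Genes of stem cells and of the erythroid, lymphoid and megakaryocyte lineages were mostly lower. Of 3 comparable mast cell and basophil genes, 1 was higher in 4 of 4 libraries and 0 were lower. Of 5 dendritic cell and MHC class II genes, 1 was higher and 3 lower. Of 15 comparable stem cell genes, 0 were higher and 11 lower, with a median log2 ratio of -1.13. Meis1, a homeobox partner of HOX proteins, stood at -1.13 ± 0.58, Mllt3, a maintenance factor of stem cells, at -1.31 ± 0.32, and Procr, the endothelial protein C receptor, at -1.60 ± 0.64. Of 12 erythroid genes, 0 were higher and 11 lower, among them Klf1, the master factor of red cells, at -2.48 ± 1.38, Gata1 at -1.61 ± 0.96 and Car2, a carbonic anhydrase, at -1.94 ± 0.63. Of 17 lymphoid genes, 1 was higher and 11 lower. Il7r, the interleukin 7 receptor, stood at -0.70 ± 0.29 and Ighm, the mu heavy chain, at -0.60 ± 0.20. Of 7 megakaryocyte genes 5 were lower, with Pf4, a platelet chemokine, at -2.01 ± 1.27. Cd79a, Vwf, Clec9a and Alb, which mark B cells, megakaryocytes and endothelium, dendritic cells and hepatocytes, had 0 counts in gated cells of any library, but they were near 0 in other cells too (0 to 8.83 CPM), so no direction is read from them.

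**Figure D2:**
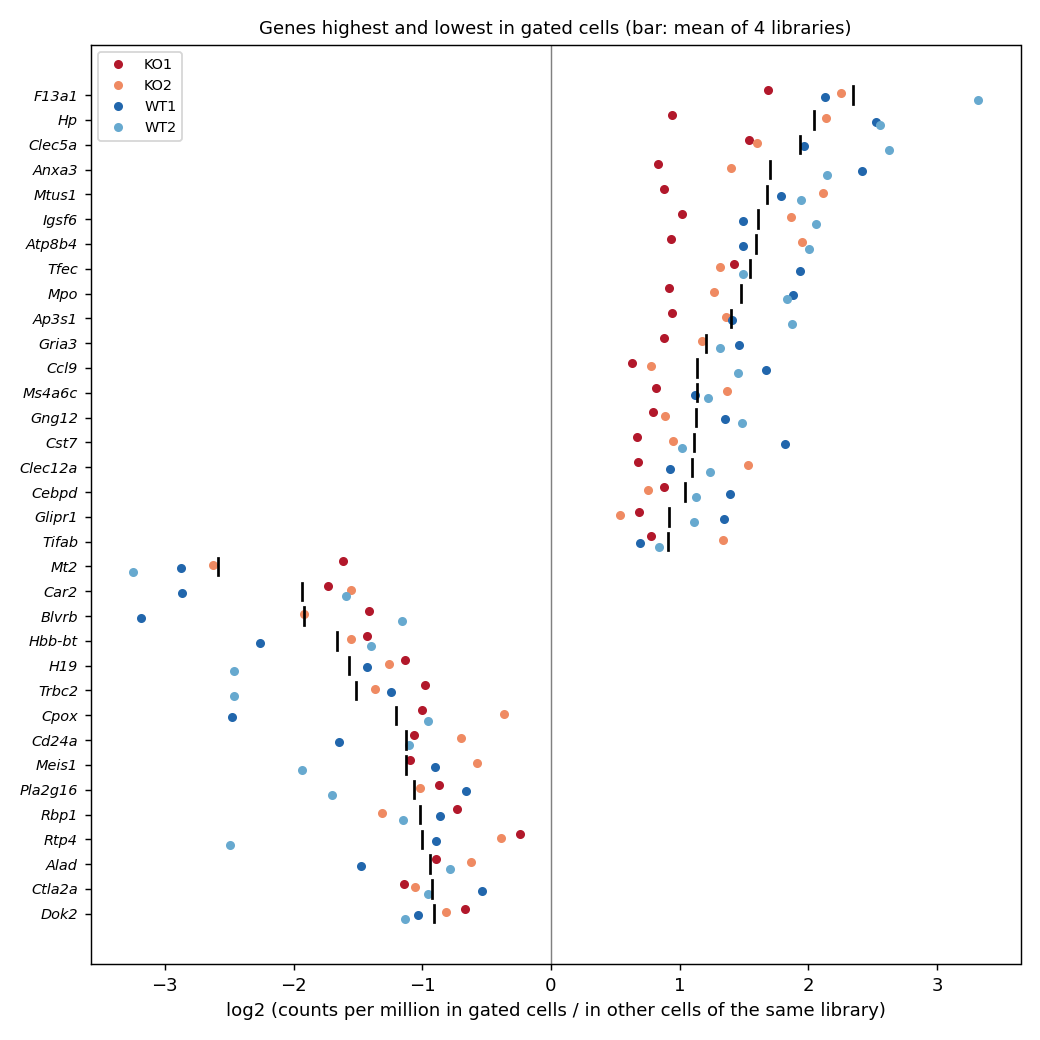
Log2 ratio of CPM in gated cells over other cells of the same library, for 19 of the 20 genes with the highest and the 15 with the lowest mean ratio outside the gate genes; each point is a library, KO and WT in different colours. F13a1 (mean 2.35) and Hp (2.04) are the highest, Mt2 (-2.59) is the lowest, and 15 of the 19 high genes drawn have their smallest ratio in KO library 1. Black bars are means of the 4 libraries.

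Levels also differed along the gate sum. Mpo stood at 387 and 404 CPM in KO cells and 223 and 349 CPM in WT cells with a sum of 0, at 836 and 792 CPM in KO and 662 and 953 CPM in WT cells with a sum of 3, and at 1735 and 2085 CPM in KO and 2333 and 3312 CPM in WT cells with a sum of 10 or more. The summed stem cell genes went the other way, with 392 and 606 CPM in KO and 389 and 583 CPM in WT cells at a sum of 0, and 199 and 162 CPM in KO and 209 and 251 CPM in WT cells at 10 or more. The stem cell sum did not fall at every step, since it was lowest at a sum of 4 to 5 in both WT libraries, at 184 and 179 CPM. The bin of 10 or more held 80 and 40 KO cells and 29 and 12 WT cells. Depth also grew with the sum, since the sum is a raw count, and its part in these levels was not tested.

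**Figure D3:**
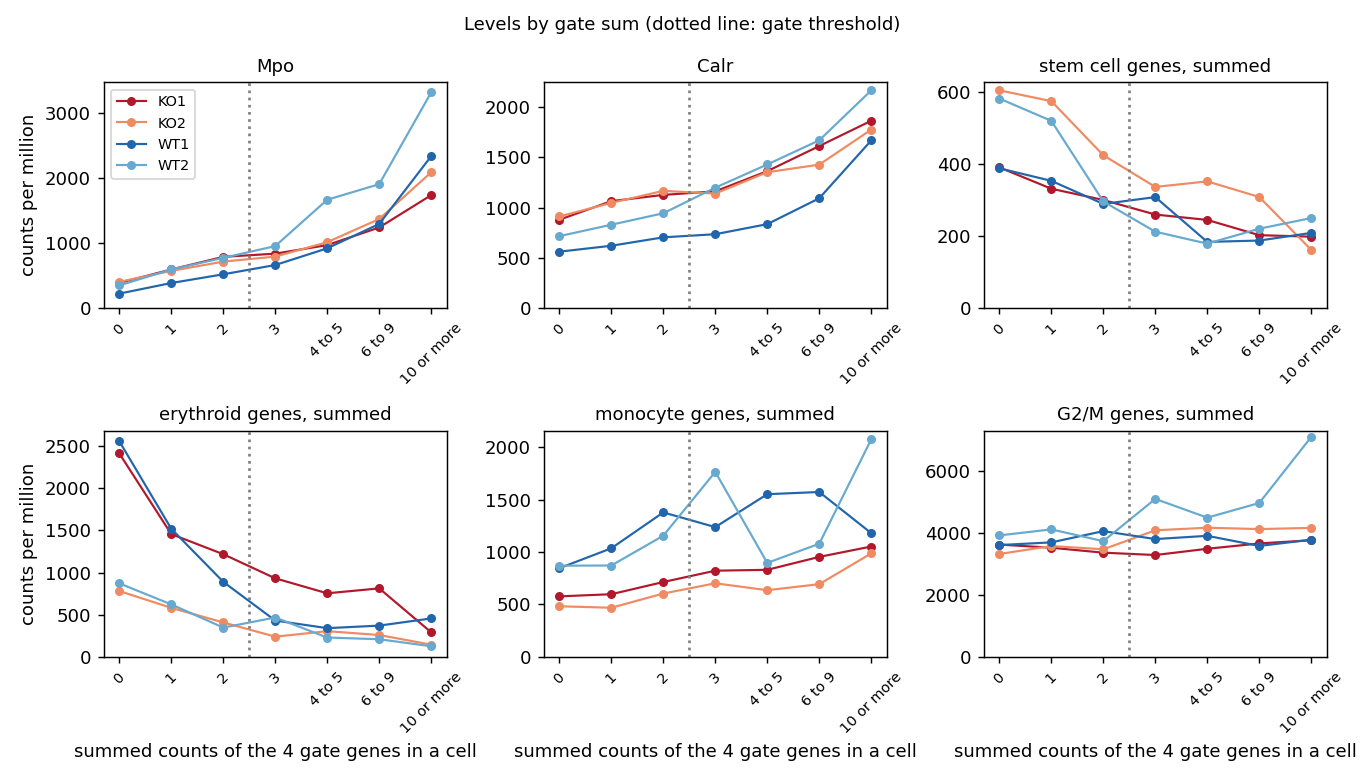
CPM of Mpo, Calr and summed gene lists against the gate sum (cells grouped by their summed counts of Elane, Prtn3, Ctsg and Ms4a3), with 1 line per library. Mpo climbs in all 4 libraries, to 1735 and 2085 CPM in KO and 2333 and 3312 CPM in WT at a sum of 10 or more.

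Counts of G2/M genes were somewhat more frequent in gated cells at equal depth. After thinning, 54.4% and 55.7% of KO gated cells and 55.7% and 64.3% of WT gated cells had 2 or more counts of 8 G2/M genes, against 54.1% and 46.9% of other KO cells and 48.1% and 51.1% of other WT cells. Gated shares were above those of other cells in each library, by the least in KO library 1. There the 8 genes took 2.05 of 1000 counts in gated cells and 2.11 in other cells, while in each of the other libraries they took more in gated cells. Thinned cells were sorted into gated and other cells by their raw counts. Without thinning, with 3 or more counts asked for, the gated shares were 67% and 82.3% in KO and 82.5% and 75.7% in WT. Of 22 G2/M genes 7 were higher in gated cells in 4 of 4 libraries and 0 lower, and of 18 S phase genes 0 were higher and 6 lower.

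Within gated cells, KO was then compared with WT on counts summed per library, with edgeR's quasi-likelihood test and Benjamini-Hochberg adjustment over all genes. Of 9048 genes tested, 22 (0.243%) had an adjusted p under 0.05, 10 higher (0.111%) and 12 lower (0.133%), against 25 higher and 18 lower with library size alone, and 1321 had an unadjusted p under 0.05. Of the 22, 4 were Xist, Eif2s3y, Ddx3y and Uty. Of the other 18, 9 were higher and 9 lower. In bulk LSK cells 16 of them were called in the same direction, 0 in the opposite direction and 2 (Rabgap1l and Lyz2) not at all. Of all 14405 genes tested in bulk, 21.6% were called higher and 22.6% lower. Leaving out KO library 1, KO library 2, WT library 1 or WT library 2 gave 125, 143, 126 and 581 calls, where the lone library of a genotype is assumed to vary like the libraries of the other genotype.

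Rtp4, an interferon-induced chaperone of receptors, stood at 122 and 112 CPM in KO gated cells and at 6.53 and 3.68 CPM in WT gated cells. Both KO libraries were far above both WT libraries, with a log2 fold change of 4.30 (SE 0.36, edgeR adjusted p = 0.000935), and the call held under every alternative in which it was tested, which leaves out the gate on thinned cells. Irgm1, an interferon-inducible GTPase, stood at 59.0 and 79.1 CPM in KO and 15.2 and 23.9 CPM in WT (log2 fold change 1.77, edgeR adjusted p = 0.0493), and lost its call with RLE size factors (adjusted p = 0.0591) and with a threshold of 5 counts (0.107). These were the 2 called genes of 41 interferon genes tested in gated cells. In gated cells both KO sums lay above both WT sums for 36 of the 41 and below for 0, where 26.8% and 16.8% of all genes did so, and their median log2 fold change was 1.11, against -0.01 for all genes. Ifitm3, a membrane restriction factor, stood at 839 and 649 CPM in KO and 272 and 304 CPM in WT, without overlap, and did not pass (log2 fold change 1.29, edgeR adjusted p = 0.061). In other cells the same list had a median of 1.33 over 56 genes, with 0 called by edgeR, where 1 of 13018 genes was called. Of the 56, 50 were higher at an unadjusted p under 0.05, where 975 of 13018 genes were. Both KO sums lay above both WT sums for 54 of the 56 and below for 0, where 25.1% and 19.6% of all genes did so. The interaction test described below called 0 of 56 interferon genes, so their KO difference is not read as particular to gated cells.

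The other 7 genes called higher belong to no list described here. Fam212a, an inhibitor of the kinase PAK4, stood at 220 and 270 CPM in KO gated cells and 79.4 and 77.3 CPM in WT gated cells (log2 fold change 1.53, SE 0.21, edgeR adjusted p = 0.0307), and it kept its call under all alternatives tried. Timm17a, a subunit of the inner-membrane import channel, stood at 219 and 246 CPM in KO and 81.6 and 88.3 CPM in WT (log2 fold change 1.36, edgeR adjusted p = 0.0345), and lost its call with a threshold of 5 counts (adjusted p = 0.0554) and on thinned cells (0.120). Phax, the adaptor that exports small nuclear RNAs, stood at 281 and 345 CPM in KO and 87.0 and 144 CPM in WT (log2 fold change 1.38, edgeR adjusted p = 0.0449), and lost its call on thinned cells (adjusted p = 0.123), with 2 gate counts per 1000 (0.0768) and with RLE size factors (0.0531). In these 3 genes, as in the mitochondrial ribosomal protein genes Mrpl46 (log2 fold change 1.29) and Mrps34 (1.15), KO and WT did not overlap. Rpp38, a subunit of the tRNA-processing enzyme RNase P (1.63), and 1700021F05Rik (1.57) were also called higher, and are named after their values were seen. Mrpl46, Mrps34, Rpp38 and 1700021F05Rik each lost their call with a threshold of 5 counts, on thinned cells and with RLE size factors (adjusted p = 0.0529 to 0.172).

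Myeloid genes were among those lower. Lyz2, the lysozyme of myeloid cells, stood at 98.8 and 144 CPM in KO gated cells and at 246 and 361 CPM in WT gated cells, with no overlap (log2 fold change -1.40, SE 0.22, edgeR adjusted p = 0.0444). It was the only granulocyte progenitor gene called among 23 tested, and it lost its call with RLE size factors (adjusted p = 0.0529). Lgals3, a galectin of macrophages, stood at 3.13 and 2.87 CPM in KO and 23.9 and 23.9 CPM in WT (log2 fold change -3.07, SE 0.43, edgeR adjusted p = 0.0345). These levels rest on 8 and 7 counts in KO and 22 and 13 in WT. Lgals3 lost its call without high-count cells, at an adjusted p of 0.157. It had no adjusted p with a threshold of 5 counts, on thinned cells, with at least 2 of the 4 genes, with 2 gate counts per 1000 or with DESeq2. Id2 stood at 31.3 and 31.6 CPM in KO and 146 and 90.2 CPM in WT (log2 fold change -2.05, SE 0.30, edgeR adjusted p = 0.0345), and its adjusted p was 0.125 when the gate was applied to thinned cells and 0.0752 with a threshold of 5 counts. Trem2, a lipid receptor of macrophages, had 0 counts in both KO sums and 19 counts in the WT sums, at 16.3 and 7.36 CPM, at least 21.6-fold lower against a floor of 3 counts over the KO sums. Trem2 also had no adjusted p in the settings where Lgals3 had none. It lost its call with RLE size factors (adjusted p = 0.0529) and without KO library 1 (0.0701) or KO library 2 (0.0574). The histone variant genes H2afx and H2afv were lower too, at 99.6 and 158 CPM in KO and 294 and 355 CPM in WT for H2afx and at 129 and 172 CPM in KO and 330 and 331 CPM in WT for H2afv (log2 fold changes -1.43 and -1.24, edgeR adjusted p = 0.0444 and 0.0449). Both lost their call with RLE size factors (adjusted p = 0.0529 and 0.0531), and H2afv also with library size alone (0.0598) and without KO library 1 (0.0723). Rabgap1l (-1.40), Fgd2, an exchange factor for Cdc42 (-1.57), and Smim14 (-1.74) were also called lower, and together with Trem2 are named after their values were seen. These last 3 lost their call with a threshold of 5 counts (adjusted p = 0.0547, 0.0949 and 0.0547), Rabgap1l also with 2 gate counts per 1000 (0.0506), and Fgd2 and Smim14 with RLE size factors (0.0529 and 0.0591).

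Monocyte genes leaned lower in KO gated cells. Both KO sums lay below both WT sums for 12 of 17 genes and above for 0, where 16.8% and 26.8% of all genes did so. The log2 fold changes had a median of -0.89, and 1 of the 17, Lgals3, was called. Tyrobp, the adaptor of activating myeloid receptors, stood at 293 and 277 CPM in KO and 576 and 482 CPM in WT (log2 fold change -0.997, edgeR adjusted p = 0.102), and Irf8 at 66.4 and 69.7 CPM in KO and 124 and 110 CPM in WT (-0.89, edgeR adjusted p = 0.132). Neither passed, though KO and WT did not overlap. In other cells the monocyte list had a median of -0.58, with both KO sums below both WT sums for 10 of 17, where 19.6% of all genes did so. The smaller share of monocyte-marked cells in KO gated cells stood beside these values, and its part in them was not tested.

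Few granulocyte genes passed the test between KO and WT inside the gate, where 0.243% of all 9048 genes did. Of 23 granulocyte progenitor genes tested, edgeR called 0 higher and 1 lower. DESeq2 called the same numbers among the 15 to which it gave an adjusted p. Of the 23, 0 were higher and 5 lower at an unadjusted p under 0.05, where 636 and 685 of all 9048 genes were. The log2 fold changes of the 23 genes had a median of -0.30. Both KO sums lay above both WT sums for 2 and below for 7, where 26.8% and 16.8% of all genes did so. Mpo had a log2 fold change of -0.30 (edgeR adjusted p = 0.602), Hp one of 0.38 (adjusted p = 0.685) and Plac8 one of 0.17 (adjusted p = 0.87). In other cells the same list had a median of 0.35 over 24 genes, with 0 called by edgeR, where 1 of 13018 genes was called. Of the 24, 3 were higher and 1 lower at an unadjusted p under 0.05, where 975 and 642 of 13018 genes were. Both KO sums lay above both WT sums for 7 of the 24 and below for 3, where 25.1% and 19.6% of all genes did so, and no direction is read from these counts. Among 13 myeloid transcription factors, Id2 alone was called, and the median was -0.09.

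In gated cells 4 further lists had 0 calls by edgeR, where 0.243% of all 9048 genes were called. Their counts stand beside 26.8% of all genes with both KO sums above both WT sums and 16.8% with both below. Of all 9048 genes, 636 were higher and 685 lower at an unadjusted p under 0.05. MYC and ribosome biogenesis genes had both KO sums above both WT sums for 18 of 27 and below for 0, at a median log2 fold change of 0.30, with 13 at an unadjusted p under 0.05 and 2 called higher by DESeq2 among 25 with an adjusted p. Ncl, nucleolin, stood at 7367 and 8138 CPM in KO and 2574 and 4396 CPM in WT (1.09, edgeR adjusted p = 0.222). m6A writer, reader and eraser genes had KO above WT for 14 of 19 and below for 0, with 8 at an unadjusted p under 0.05 and 1 of 10 called higher by DESeq2. Wtap, the adaptor of the writer complex, stood at 167 and 182 CPM in KO and 72.9 and 51.5 CPM in WT (1.35, edgeR adjusted p = 0.061). Lymphoid genes had KO below WT for 8 of 13 and above for 2, with 7 at an unadjusted p under 0.05 and 1 of 8 called lower by DESeq2. Ighm stood at 44.5 and 58.2 CPM in KO and 115 and 109 CPM in WT (log2 fold change -1.23, edgeR adjusted p = 0.061). G2/M genes had KO below WT for 6 of 22 and above for 1, with 6 at an unadjusted p under 0.05 and 2 of 22 called lower by DESeq2. Ube2c, the conjugating enzyme of mitotic exit, stood at 231 and 288 CPM in KO and 464 and 473 CPM in WT (-0.95, edgeR adjusted p = 0.0765).

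Whether a KO difference was itself unlike in gated and other cells was tested with an interaction term over the 8 sums, with the library as a block. Of 12274 genes tested, 13 (0.106%) were called by edgeR, 1 with a higher (0.00815%) and 12 with a lower (0.0978%) difference in gated cells, and 645 had an unadjusted p under 0.05. Of the 13, 3 were Prtn3, Ctsg and Ms4a3, which set the gate and carry no test. In other cells alone, 1 of 13018 genes (0.00768%), Xist, was called between KO and WT by edgeR, with 1617 at an unadjusted p under 0.05 and 198 called by DESeq2.

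Apoe, the lipid carrier apolipoprotein E, had the smallest adjusted p. It stood at 83.2 and 96.7 CPM in KO gated cells and 197 and 182 CPM in WT gated cells, and at 174 and 245 CPM in other KO cells and 150 and 185 CPM in other WT cells. In gated cells KO lay below WT without overlap, while in other cells they overlapped. The difference of the log2 fold changes was -1.44 (SE 0.16, edgeR adjusted p = 3.09e-05), and the call held under all 13 alternatives, with adjusted p up to 0.0063. Apoc1, its neighbour in the apolipoprotein cluster, had a difference of -1.94, with 13.7 and 8.61 CPM in KO gated cells and 40.2 and 20.2 CPM in WT gated cells (edgeR adjusted p = 0.0155), and lost its call without KO library 2 or WT library 1 (adjusted p = 0.106 and 0.905), with a threshold of 5 counts (0.0559) and with DESeq2 (0.9997).

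Mpo had a difference of -0.78 (SE 0.12, edgeR adjusted p = 0.00187). In gated cells KO (1103 and 1220 CPM) and WT (1162 and 1549 CPM) overlapped, and in other cells KO (584 and 507 CPM) lay above WT (315 and 434 CPM). Without KO library 1 the adjusted p was 0.232. Ccl9 stood at 145 and 134 CPM in KO and 208 and 178 CPM in WT gated cells, and at 93.3 and 77.7 CPM in KO and 65.1 and 65.0 CPM in WT other cells, with KO below WT inside the gate and above WT outside it (-0.90, edgeR adjusted p = 0.0075). Anxa3, a phospholipid-binding protein of granulocytes, stood at 88.3 and 84.4 CPM in KO and 106 and 138 CPM in WT gated cells, and at 49.6 and 31.9 CPM in KO and 19.5 and 31.0 CPM in WT other cells (-1.20, edgeR adjusted p = 0.00818). Ccl9 lost its call without KO library 1 or WT library 1 (adjusted p = 0.121 and 0.553), as did Anxa3 (0.189 and 0.254). Both also lost it with DESeq2 (adjusted p = 0.759 for Ccl9 and 0.874 for Anxa3) and on thinned cells (0.994 and 0.284), where the difference for Ccl9 was -0.48, and Ccl9 lost it with 2 gate counts per 1000 (0.999). Beside these 3 genes, the 4 gate genes took 1.81 and 0.864 of 1000 counts in KO gated cells and 1.37 and 1.27 in WT gated cells, and 0.475 and 0.172 in other KO cells and 0.175 and 0.142 in other WT cells. The part of these levels in the differences was not tested.

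**Figure D4:**
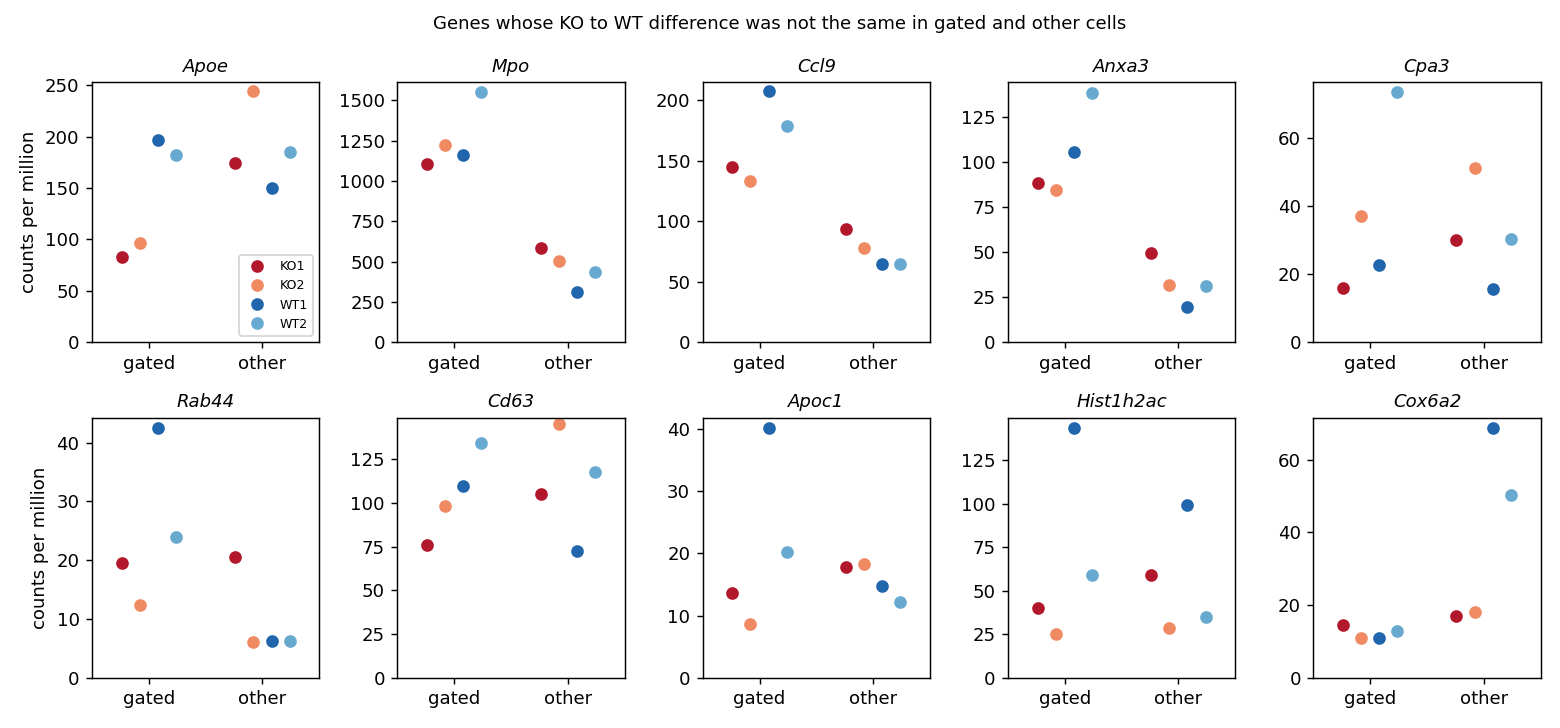
CPM of each library in gated and in other cells, for 10 genes whose KO over WT difference was unlike in the 2 kinds of cells, with KO left of WT. Apoe is lower in KO inside the gate (83.2 and 96.7 CPM in KO, 197 and 182 CPM in WT) and overlaps outside it.

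Bulk LSK cells, which the gate did not use, carried more RNA of most genes that mark the gated cells. Prtn3 stood at 380, 423 and 397 CPM in KO and at 124, 121 and 131 CPM in WT (log2 fold change 1.67, SE 0.07, edgeR adjusted p = 8.75e-06). Ctsg stood at 118, 129 and 125 CPM in KO and 28.0, 24.3 and 22.3 CPM in WT (2.32, SE 0.09, edgeR adjusted p = 8.75e-06), and Ms4a3 at 49.5, 61.9 and 56.3 CPM in KO and 7.98, 8.35 and 5.25 CPM in WT (2.94, SE 0.17, edgeR adjusted p = 1.57e-05). For these 3 genes all KO libraries lay above all WT libraries. Elane stood at 24.3, 25.8 and 24.8 CPM in KO and 18.4, 23.7 and 10.1 CPM in WT, also without overlap, and did not pass (0.51, edgeR adjusted p = 0.114). Mpo stood at 3191, 3159 and 3132 CPM in KO and 1381, 1342 and 1502 CPM in WT (1.17, SE 0.07, edgeR adjusted p = 2.07e-05). In bulk, more cells of a type and more RNA per cell cannot be told apart.

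Of the 20 genes highest in gated cells, 18 were called higher in bulk KO LSK cells and 0 lower, where 44.2% of 14405 genes were called and 21.6% were called higher (3114 higher and 3253 lower, against 2463 and 4143 with library size alone), and their median log2 fold change was 1.25. F13a1 (0.18, edgeR adjusted p = 0.575) and Clec12a (0.28, adjusted p = 0.141) did not pass. Within gated cells 0 of the 20 were called by edgeR between KO and WT, where 22 of 9048 genes (0.243%) were called. This count is near that share, so it does not show that levels were the same in KO and WT. The log2 fold changes of the 20 genes in gated cells had a median of -0.25. Of the 20, 7 had an unadjusted p under 0.05, all lower, where 685 of 9048 genes were lower at that level. DESeq2 called 0 among the 12 to which it gave an adjusted p. Hp, for one, had a log2 fold change of 0.38 in gated cells (edgeR adjusted p = 0.685) and of 2.59 in bulk (edgeR adjusted p = 9.75e-06). Of the 15 genes lowest in gated cells, 11 were called lower in bulk and 1, Rtp4, higher, against 22.6% of all genes called lower.

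H3K4me3, a mark of active promoters, was read in 1 window at the start of each gene. At Ms4a3 it stood at 53.4 and 51.5 CPM in KO and 21.6 and 20.7 CPM in WT (log2 fold change 1.31, SE 0.19, edgeR adjusted p = 5.38e-09). At Prtn3 it stood at 131 and 114 CPM in KO and 79.2 and 60.8 CPM in WT (0.80, SE 0.25, edgeR adjusted p = 0.0258). KO and WT did not overlap at either gene. The Prtn3 window belongs to a start listed at chr10:79880980, whereas the Prtn3 promoter shown above ends at 79879666, so the 2 are not the same start. At Elane, with 41.3 and 45.6 CPM in KO and 32.2 and 30.4 CPM in WT (0.47, edgeR adjusted p = 0.0865), and at Ctsg, with 41.4 and 45.0 CPM in KO and 30.7 and 31.8 CPM in WT (0.47, edgeR adjusted p = 0.0903), the difference did not pass, though KO lay above WT. Elane and Ctsg are to be read beside other gene lists in this fit, not only beside all windows. Median log2 fold changes were 0.24 for G2/M, 0.22 for S phase, 0.23 for folding and 0.34 for MYC and ribosome biogenesis genes, with 0 called in each. They were -0.26 for lymphoid, -0.12 for monocyte and 0.01 for erythroid genes. Of all 51039 windows, 7.88% were called, and the median was -0.15 on the log2 scale. These were 1644 higher and 2380 lower, a balance that turned with DESeq2 (759 and 43), with RLE size factors (1999 and 1993) and in the fits without 1 library, and that was 1305 and 3309 with library size alone. Of the 20 genes highest in gated cells, 11 were called higher and 0 lower at their starts, among them Clec5a (1.04) and Igsf6 (1.04), where 3.22% of all windows were called higher and 4.66% lower.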

How the data were processed

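The authors deposited raw counts of reads or tags per gene and cell for single cells, per gene for bulk RNA and per transcript start window of 3 kb for H3K4me3, per the labels. Whether the single-cell counts are unique molecules, and the counting tool, annotation release and strand setting, are not given in the sources used here. The submitters' processing notes list the build GRCm38.p5 with Seurat 3.0, Picard 2.9.0, Bowtie2 2.2.9, STAR 2.5.3a, edgeR and bedtools, without roles.

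The members and gene lists were chosen with earlier results of these data known. Cells with under 500 counts or 20% or more mitochondrial counts were left out; doublets were neither called nor removed, and an alternative dropped each library's highest 5% of cells by counts. Counts of gated and of other cells were summed per library. CPM are plain counts per 1000000 of these sums. KO was compared with WT by edgeR 4.0.16 under R 4.3.3 (filterByExpr, TMM, quasi-likelihood test, Benjamini-Hochberg over all genes, threshold 0.05), with DESeq2 1.42.0 as an alternative; the gate genes were fitted but carry no test. Gated-over-other ratios used a prior of 1 count scaled to each sum (0.217 CPM); with an unscaled prior, genes without counts would seem higher in the smaller gated sums. Genes were compared where 3 or more counts were to be expected in every gated sum. Named genes were the 20 highest and 15 lowest ratios with a count in at least 10% of cells and 1 sign in all 4 libraries, genes called between KO and WT or in the interaction with no overlap and a mean of at least 100 CPM, and members of the lists; 1 of the 20 is counted but not reported here by name. For H3K4me3 the window with the highest mean count stood for each gene. Shares were compared by exact permutation tests over libraries, and Clopper-Pearson intervals and limits from a count of 0 cover counting error only. Depth was 20088100 to 40641081 counts per bulk library and 11508749 to 14451593 per H3K4me3 library in the windows kept. Scripts used Python 3.11.15, and the models were tested on simulated data.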

Additional observations from a re-analysis of the deposited data

Results flagged for a closer look

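For 10 genes outside the gate, the KO over WT difference in gated cells was unlike that in other cells by edgeR's test of the interaction, as the difference of the 2 log2 fold changes. It was -1.44 for Apoe, -0.783 for Mpo, -0.897 for Ccl9 and -1.20 for Anxa3, whose levels are given above. It was -1.63 for Cpa3, a mast cell protease, which stood at 16 and 37.3 CPM in KO and 22.8 and 73.6 CPM in WT gated cells, and lost its call without WT library 2 (edgeR adjusted p = 0.658) and with DESeq2 (0.874). It was -2.15 for Rab44, a large Rab GTPase, with 19.5 and 12.3 CPM in KO and 42.4 and 23.9 CPM in WT gated cells, and -0.94 for Cd63, a tetraspanin of granule membranes, with 75.8 and 98.3 CPM in KO and 110 and 134 CPM in WT gated cells. It was -1.94 for Apoc1, whose levels are also given above, and -1.05 for the histone gene Hist1h2ac, with 39.8 and 25.0 CPM in KO and 144 and 58.9 CPM in WT gated cells. Cox6a2, a respiratory chain subunit, was the 1 gene with a higher difference, at 1.92, with 14.46 and 11.1 CPM in KO and 10.9 and 12.9 CPM in WT gated cells, and 16.9 and 18.0 CPM in KO and 68.7 and 50.2 CPM in WT other cells. Rab44, Cd63, Hist1h2ac and Cox6a2 each lost their call without WT library 1 (edgeR adjusted p = 0.838, 0.785, 0.553 and 0.773), and without KO library 1 Rab44, Hist1h2ac and Cox6a2 did so (0.745, 0.744 and 0.296). Cd63 also lost its call without KO library 2 (0.0525) and Hist1h2ac without WT library 2 (0.0628). All 4 lost it with DESeq2 (0.9997) and on thinned cells (0.120 to 0.994). There the difference was -0.52 for Hist1h2ac and 1.15 for Cox6a2, and with a threshold of 5 counts Hist1h2ac stood at -0.58. Without high-count cells Cox6a2 stood at 1.05 and lost its call (0.883).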

How the results depend on the processing

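KO minus WT in the share of gated cells stayed positive under every alternative, at 3.26 to 12.5 points (8.37 as reported). Leaving out 1 library, done for the raw gate alone, gave 4.20 to 12.5 points, and thinning gave the smallest value. On thinned cells KO library 2 stood at 1.44%, beside a WT mean of 1.40%. With 2 gate counts per 1000 it stood at 1.34%, below the WT mean of 1.51%. The count of genes called within gated cells moved more: 22 as reported, 10 with a threshold of 5 counts and with RLE size factors, 85 with the gate on thinned cells, 93 with at least 2 of the 4 genes, 84 without high-count cells, 100 with 2 gate counts per 1000 (chosen after seeing the data), 43 with library size alone, 378 with no filter, 56 with DESeq2, and 125 to 581 without 1 library. Of the 22, 10 were higher and 12 lower, and with library size alone 25 were higher and 18 lower. In other cells 1 gene was called, 4 with library size alone, 12 with no filter, 198 with DESeq2 and 0 to 1 without 1 library. The interaction gave 13 calls, 28 with a threshold of 5 counts, 23 on thinned cells, 27 with 2 of the 4 genes, 20 without high-count cells, 24 with 2 gate counts per 1000, 3 with DESeq2 and 7 to 22 without 1 library. With library size alone the median log2 fold change of all genes was -0.11 in bulk (-0.02 as reported) and -0.40 in H3K4me3 (-0.15 as reported). H3K4me3 gave 4024 calls, 802 with DESeq2 and 1080 to 3858 without 1 library. In bulk the count of 6367 stayed within 1.5 times, at 4677 to 6796 without 1 library. Genes outside the gate with a count in at least 10% of gated cells, a ratio above 0 in all 4 libraries and a mean gated over other log2 ratio of at least 1 numbered 18, 30 on thinned cells, 29 with 2 gate counts per 1000 and 16 to 19 without 1 library. By the labels, same-numbered KO and WT libraries share only a number. Their deviations correlated at 0.244 in gated cells, 0.313 in other cells and 0.292 in H3K4me3, with 2 pairs each. In bulk the correlations were 0.23, 0.0961 and 0.0441. Some single-cell levels went with the number. S100a8 in other cells stood at 1161 and 512 CPM in KO and WT library 1, and at 58.2 and 52.0 CPM in KO and WT library 2. Erdr1 in gated cells stood at 60.6 and 60.9 CPM in KO and WT library 1, and at 0.41 and 0 CPM in KO and WT library 2. The main KO over WT fits had no block for the number. With the replicate number as a block, 361 genes were called in gated cells, 1 in other cells, 7018 in bulk and 20842 windows in H3K4me3. For the 18 genes called in gated cells, 195 of 234 values under alternatives kept their call and 39 lost it, and for the 10 interaction genes 92 of 130 kept it and 38 lost it; 0 turned in sign, and the cause was not tested. The filter on low counts kept 9048 genes in gated cells, where the smallest sum was that of WT library 2 with 144 cells and 543460 counts, and 13018 genes in other cells.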
